A study of Mus musculus with 6 samples.

Results

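The ATG8 family comprises the small ubiquitin-like proteins that coat autophagosomes, and its mouse genes measured here are Map1lc3a and Map1lc3b of the LC3 subfamily and Gabarap, Gabarapl1 and Gabarapl2 of the GABARAP subfamily. They were taken by gene name, 1 row per Ensembl identifier, and all 5 were found among the 55487 genes of the table. RNA came from microglia, the macrophages that reside in brain tissue, sorted from the cortex of female mice 20 months of age by the gate for live CD11b-positive cells of intermediate CD45. Controls were 3 Atg7-fl/fl mice, and knockouts were 3 Atg7-fl/fl;Cx3cr1-CreERT2 mice. Every mouse thus carried the floxed Atg7 alleles. Only the knockouts carried the tamoxifen-inducible Cre, which is expressed from the Cx3cr1 locus in microglia and related macrophages. Cre carriage, a change in Cx3cr1 itself and loss of Atg7 thus cannot be told apart. The labels do not give an induction schedule.

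In macroautophagy an ATG8 protein is first trimmed by an ATG4 protease so that a glycine becomes its last residue. ATG7, the E1-like enzyme, activates this glycine, ATG3 takes over the protein, and the ATG12-ATG5-ATG16L1 complex directs its attachment to phosphatidylethanolamine in the growing membrane. The lipid-bound protein then recruits cargo receptors and the factors that move and fuse the autophagosome, and part of it is degraded in the lysosome with the cargo. Loss of ATG7 blocks this step on the protein, which read counts do not measure. The counts show the transcript supply of the unconjugated proteins.

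The coding ends below are shown because they hold the codon of the glycine that ATG7 acts on. Each is the final 60 coding bases of the transcript, 5′ to 3′ and with the stop codon, from GENCODE M21 on GRCm38. Capitals mark the glycine codon, which follows a codon for phenylalanine or tyrosine.
Map1lc3a: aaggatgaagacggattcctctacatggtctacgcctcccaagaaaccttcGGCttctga
Map1lc3b: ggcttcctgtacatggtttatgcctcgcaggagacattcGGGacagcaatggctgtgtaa
Gabarap: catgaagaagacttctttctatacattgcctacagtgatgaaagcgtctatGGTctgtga
Gabarapl1: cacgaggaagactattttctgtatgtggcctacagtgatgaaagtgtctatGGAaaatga
Gabarapl2: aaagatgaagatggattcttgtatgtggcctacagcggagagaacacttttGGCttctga
They lie on the plus strand at chr2:155277578-155277637, chr8:121596711-121596770, chr11:69994465-69994524, chr6:129541108-129541167 and chr8:111952346-111952405, each within 1 coding exon. Map1lc3b had 5 codons between the glycine and the stop, and the other 4 genes had 1. Over the whole coding sequence Map1lc3a and Map1lc3b were 74.7% identical and Gabarap and Gabarapl1 74.9%. Gabarapl2 was 63.1% identical to Gabarap and 64.5% to Gabarapl1, while pairs across the subfamilies ranged from 50.4% to 55.5%.

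Library totals ranged from 1254380 to 39389527 reads. Control 3, with 1254380 reads, and knockout 2, with 3789208, were far below the other 4 libraries, which had at least 21282335. No pair of replicates looked like 1 library counted again: the chi-square statistic, divided by its degrees of freedom, was at least 39.4 in every pair. The targeted gene went with the labels: Atg7, given like all levels here in scaled reads per 1e+06 reads (CPM), had a mean of 62.9 ± 5.46 in controls (SD, n = 3) and fell to 25.1 ± 1.39 in knockouts, or by 1.33 on the log2 scale (edgeR adjusted p = 0.0147). Counts are per gene, so the Atg7 reads that remain in knockouts cannot be assigned to exons, and their source was not tested. Cx3cr1, the locus that drives Cre, also fell, with 10620 ± 907 CPM in controls against 4710 ± 791 (edgeR adjusted p = 0.00126). The groups thus differed in Cx3cr1 as well as in Atg7. The microglial markers P2ry12, Tmem119 and Csf1r were abundant in every library, with P2ry12 between 10839 and 12950 CPM. Csf1r had 11515 ± 511 CPM in controls against 9862 ± 1056, and Tmem119 4730 ± 607 against 3834 ± 380; edgeR called neither. The 9 neuronal markers summed to only 2.34 to 7.07 CPM.

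The main question was whether transcripts of the ATG8 family differed between microglia of the knockouts and of the controls. None of the 5 genes passed the threshold of an adjusted p under 0.05 in edgeR's quasi-likelihood test, in which 7 of 15787 genes tested, 0.0443%, were called (0.0317% as higher and 0.0127% as lower in knockouts). DESeq2 and limma voom also called 0 of the 5. All 5 members passed the filter on low counts. At an unadjusted p under 0.05 the count was 1 of 5, Gabarapl1, which was higher in knockouts. Of all genes tested 4.32% reached that level, 2.34% as higher and 1.98% as lower. The fitted changes of the 5 genes lay between 0.09 and 0.67 on the log2 scale, with a median of 0.23, beside a median of 0.02 over all genes tested. In RNA of sorted cells, fewer cells of a type and less RNA per cell cannot be told apart.

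Map1lc3b encodes LC3B, the form usually followed as a marker of autophagosomes. Controls 1 to 3 held 335, 371 and 222 CPM of it, knockouts 1 to 3 held 342, 354 and 395 CPM. The groups overlapped, since control 2 lay above knockouts 1 and 2, and control 3 was the lowest of all 6 libraries. The means were 309 ± 77.5 CPM (SD, n = 3) and 363 ± 27.6 CPM. The fitted log2 value was 0.23 (SE 0.18, edgeR adjusted p = 0.999), with a 95% interval for the fold itself of 0.900 to 1.53.

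Map1lc3a encodes LC3A, the second LC3 protein of the mouse. Controls 1 to 3 held 18.7, 26.6 and 6.29 CPM, against 16.7, 23.1 and 27.4 CPM for knockouts 1 to 3. The value of control 3 rests on 8 reads, and counting error alone gives it an exact Poisson interval of 2.71 to 12.4 CPM. The other 5 libraries overlapped between the groups, with knockout 1 the lowest of them. With means of 17.2 ± 10.3 CPM and 22.4 ± 5.40 CPM, the log2 fold change was 0.28 (SE 0.38, edgeR adjusted p = 0.999). The interval of its fold was the widest in the family, from 0.681 to 2.17.

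Gabarap gives the GABARAP subfamily its name and was described first as a binding partner of the GABA-A receptor. Its controls stood at 318, 369 and 193 CPM, its knockouts at 313, 388 and 323 CPM. As in Map1lc3b, control 3 was the lowest library and the others were intermixed. The means were 293 ± 90.3 CPM and 342 ± 40.8 CPM, with a fitted log2 difference of 0.22 (SE 0.21, edgeR adjusted p = 0.999) and a 95% interval of the fold of 0.852 to 1.58.

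Gabarapl2 encodes GATE-16, which was known from Golgi transport before its role in autophagy. Controls had 87.0, 92.0 and 76.2 CPM, and knockouts 75.6, 101 and 96.3 CPM. Knockout 1 was the lowest library and knockout 2 the highest, so the knockouts spanned the controls. The means were 85.1 ± 8.06 CPM and 91.0 ± 13.5 CPM. The log2 fold change of 0.09 was the smallest of the family (SE 0.17, edgeR adjusted p = 0.999), with a 95% interval of the fold of 0.825 to 1.37.

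Gabarapl1, also known as an estrogen-induced gene and as a target of FOXO factors, was the member with the largest fitted change. Controls 1 to 3 held 28.4, 23.0 and 14.9 CPM of it, and knockouts 1 to 3 held 33.6, 36.9 and 38.7 CPM. The knockouts all lay above the controls, which held in 1 of the 5 members; among all genes tested the groups did not overlap in 11.1%, with the knockouts above in 6.59% and below in 4.47%. The closest libraries were control 1, based on 1082 reads, and knockout 1, based on 1134. Their Poisson intervals, 26.8 to 30.2 CPM and 31.6 to 35.6 CPM, cover the counting error of reads only. They leave out PCR copies and the spread between mice. Means were 22.1 ± 6.80 CPM for controls and 36.4 ± 2.62 CPM for knockouts, and the fitted log2 difference was 0.67 (SE 0.24). This did not pass over all genes tested (edgeR adjusted p = 0.999, unadjusted p = 0.0144). The 95% interval of the fold was 1.11 to 2.27.

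**Figure D1:**
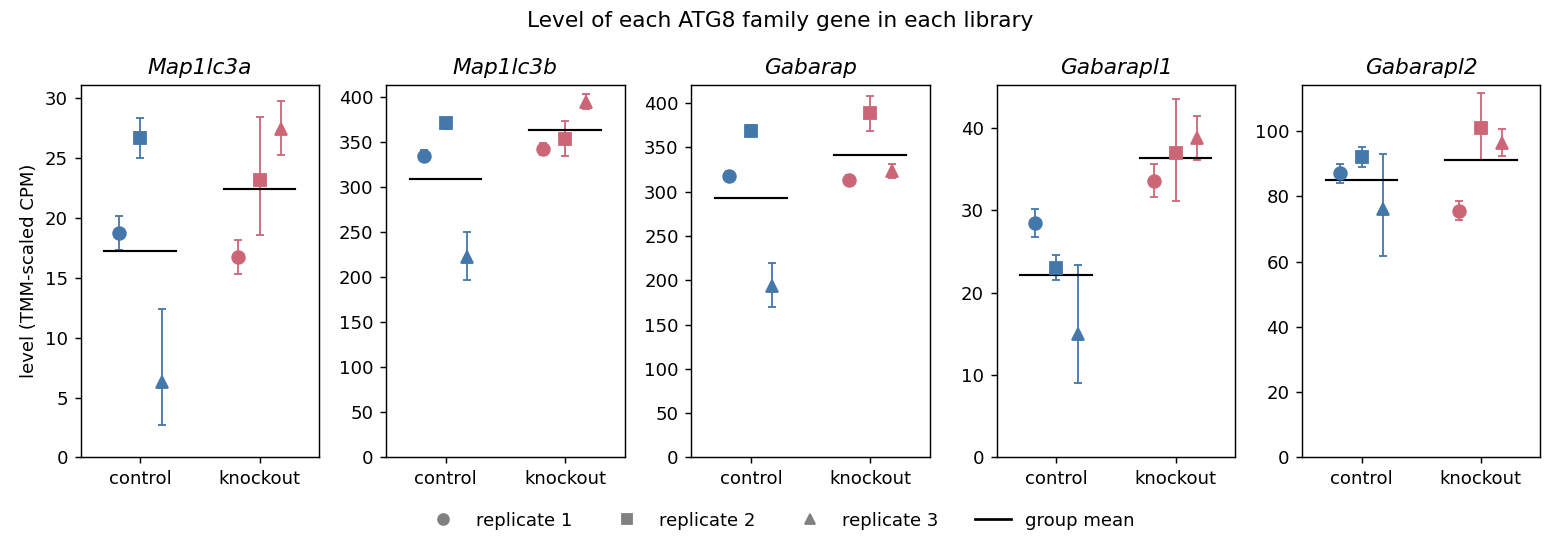
Level in TMM-scaled CPM (y axis, linear from 0, a scale of its own in each panel) of the 5 genes in 3 control and 3 knockout libraries. Symbols mark the replicate, bars the exact 95% Poisson interval of the reads, and lines the group mean. In Gabarapl1 the knockouts, from 33.6 to 38.7 CPM, lie above the controls, from 14.9 to 28.4 CPM; in the other panels the groups overlap.

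In 4 of the 5 genes, control 3 was the lowest library, and its part in the fitted changes was therefore measured. Without it the log2 fold changes of Map1lc3a, Map1lc3b, Gabarap and Gabarapl2 were -0.03, 0.03, -0.02 and 0.01, so that Map1lc3a and Gabarap turned in sign. That of Gabarapl1 was 0.49, with an unadjusted 95% interval of 0.06 to 0.92 (edgeR adjusted p = 0.602). With knockout 2 left out as well, the value for Gabarapl1 was 0.48 (edgeR adjusted p = 0.709) and those of the other 4 genes ranged from -0.12 to 0.06. Control 3 also had the smallest share of reads in ribosomal protein genes, 1.71% against 2.27% to 2.94% in the other libraries, and in mitochondrially encoded genes, 0.870% against 0.975% to 1.17%. Whether these features have a part in its low ATG8 levels was not tested.

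**Figure D2:**
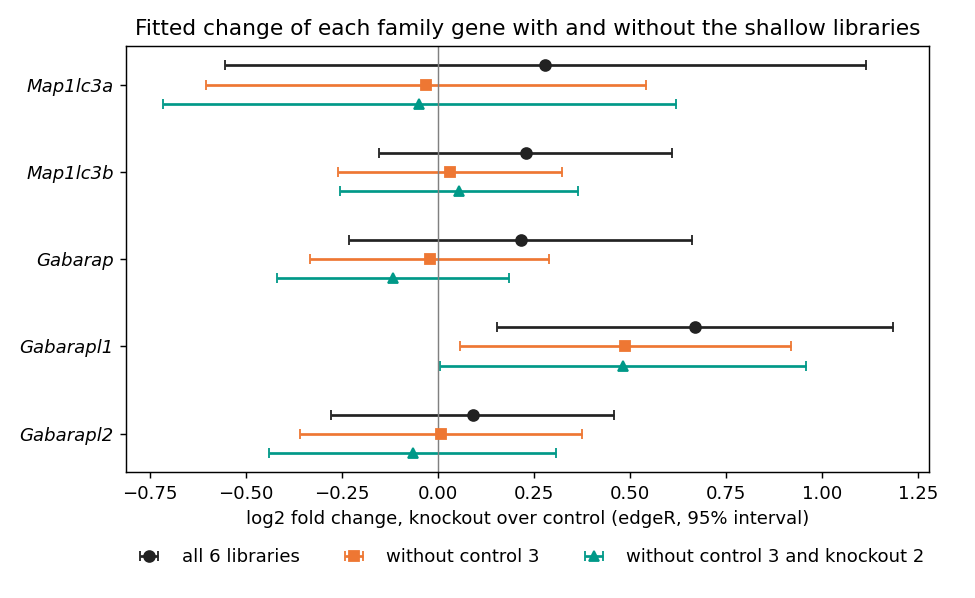
Fitted log2 fold change, knockout over control, with its unadjusted 95% interval (x axis) for each gene (y axis) from all 6 libraries, without control 3, and without control 3 and knockout 2. The values for Gabarapl1 are 0.67, 0.49 and 0.48; those of the other genes move from between 0.09 and 0.28 to between -0.12 and 0.06 when control 3, or control 3 and knockout 2, are left out.

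Markers of blood-derived and border cells were measured in the same libraries, and the sums of both lists overlapped between the groups. All 8 markers of border-associated macrophages had fitted changes above 0, and their sum ranged from 15.3 to 84.9 CPM in the controls and from 63.1 to 254 CPM in the knockouts. None of them was called by edgeR, and 4 had an unadjusted p under 0.05, all as higher in knockouts, beside 2.34% of all genes tested. Their median log2 fold change was 2.38. Every knockout lay above every control in 3 of the 8, beside 6.59% of all genes tested. The 8 monocyte and neutrophil markers, also all above 0, summed to 30.1 to 195 CPM and 99.3 to 994 CPM, with 0 called and 0 at an unadjusted p under 0.05. Their median was 1.72, and in 1 of these 8 every knockout lay above every control. No marker in either list was at 0 in every library. Between the groups, the means of both sums were higher in knockouts, as was that of Gabarapl1. They were 46.8 against 161 CPM for border-associated macrophages and 138 against 467 CPM for monocytes and neutrophils. Among the knockouts both sums were highest in knockout 1, and among the controls in control 3, which were the libraries with the least Gabarapl1 in their groups. The neuronal sum was highest in control 3 (7.07 CPM) and, among knockouts, in knockout 3 (4.88 CPM), and the groups overlapped. Astrocyte markers summed to 270 to 362 CPM over all libraries, nearly all from Slc1a3, and oligodendrocyte markers to 211 to 256 CPM. Of 5 oligodendrocyte markers tested, edgeR called 0, and 2 had an unadjusted p under 0.05, both as higher in knockouts. They were Mbp (49.8 ± 16.2 CPM in controls against 70.1 ± 8.40) and Mobp (2.35 ± 1.05 against 5.69 ± 1.24). Cnp was the 1 tested oligodendrocyte marker with a fitted change below 0 (151 ± 6.45 CPM in controls against 122 ± 5.77). Sums over endothelial and mural markers ranged from 35.5 to 80.1 CPM, and the mural marker Rgs5 was at 0 in every library. Another mural marker, Pdgfrb, was at 0 to 0.0538 CPM in the controls and at 2.34, 1.56 and 1.86 CPM in the knockouts (edgeR adjusted p = 0.166, unadjusted p = 0.000272). What part any of these cells have in the ATG8 values was not tested.

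Levels of different genes were compared per kb of exon. On this scale Gabarap was the most abundant member in all 6 libraries, with a mean of 159 ± 49.0 CPM per kb in the controls (SD, n = 3) and 185 ± 22.1 CPM per kb in the knockouts. Map1lc3b followed with 41.2 ± 10.3 and 48.3 ± 3.67 CPM per kb, and Gabarapl2 with 36.6 ± 3.47 and 39.1 ± 5.81 CPM per kb. Map1lc3a had 14.6 ± 8.69 and 19.0 ± 4.57 CPM per kb, and Gabarapl1 10.99 ± 3.38 and 18.08 ± 1.2998 CPM per kb. Gabarap exceeded Map1lc3b by 3.34-fold to 4.48-fold in every library, and Gabarapl2 exceeded Map1lc3a by 1.75-fold to 6.16-fold, or by at most 2.36-fold without control 3, where Map1lc3a had 8 reads. The other neighbours in this order did not differ beyond their spread on this scale: Map1lc3b was above Gabarapl2 in 5 of 6 libraries, and Map1lc3a above Gabarapl1 in 4 of 6. Even the lowest member was well expressed, because 82.0% of 15773 genes tested with an annotated length lay below Gabarapl1 per kb and 98.4% below Gabarap.

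The composition of the family within a library does not depend on how libraries are scaled. Gabarap made up 60.3% ± 1.87 of the length-scaled family total in the controls and 59.8% ± 3.11 in the knockouts (SD, n = 3), and Map1lc3b 15.8% ± 0.591 and 15.7% ± 1.59. Gabarapl2 held 14.5% ± 3.22 and 12.6% ± 0.832, and Map1lc3a 5.17% ± 2.04 and 6.10% ± 1.22. In these 4 genes the shares overlapped between the groups. Gabarapl1 took 4.97%, 3.54% and 4.12% of the total in the controls, against 5.98%, 5.41% and 6.17% in the knockouts, without overlap. Control 3, low in its level of Gabarapl1, thus lay between the other controls in this share. Gabarapl1 relative to Map1lc3b, as a ratio of CPM, was 0.0849, 0.0621 and 0.0671 in the controls and 0.0981, 0.104 and 0.0982 in the knockouts. Relative to Gabarap it was 0.0895, 0.0624 and 0.0772 against 0.107, 0.0950 and 0.120. Both ratios were higher in each knockout than in any control. These shares and ratios reuse the Gabarapl1 counts, whose levels already did not overlap, so they are not separate results. Among all genes tested the knockouts lay above every control in 6.59%, counted on levels and not on shares or ratios. No test was made of shares and ratios.

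Annotated exon length bears on the place of Map1lc3b. Its exons cover 7517 bases once intron-retaining transcripts are counted, whereas its longest transcript with a consensus coding sequence has 2532. Per kb of that transcript, a choice made after the data had been seen, Map1lc3b made up 29.4% ± 0.805 of the family in the controls and 29.3% ± 2.57 in the knockouts. Gabarap then held 51.6% ± 2.10 and 51.5% ± 3.24, and remained the most abundant member. On this scale Map1lc3b exceeded Gabarapl2 in 6 of 6 libraries, by 1.93-fold to 2.996-fold, so the overlap of these neighbours depends on the length used. Gabarap exceeded Map1lc3b by 1.54-fold to 2.06-fold. Gabarapl1 had 2.92% ± 0.498 and 4.08% ± 0.223, again without overlap and from the same counts. Summed over the 5 genes, controls 1 to 3 held 787, 881 and 513 CPM and knockouts 1 to 3 held 781, 903 and 880 CPM. Its log2 ratio of means was 0.23 with all libraries and 0.04 without control 3.

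**Figure D3:**
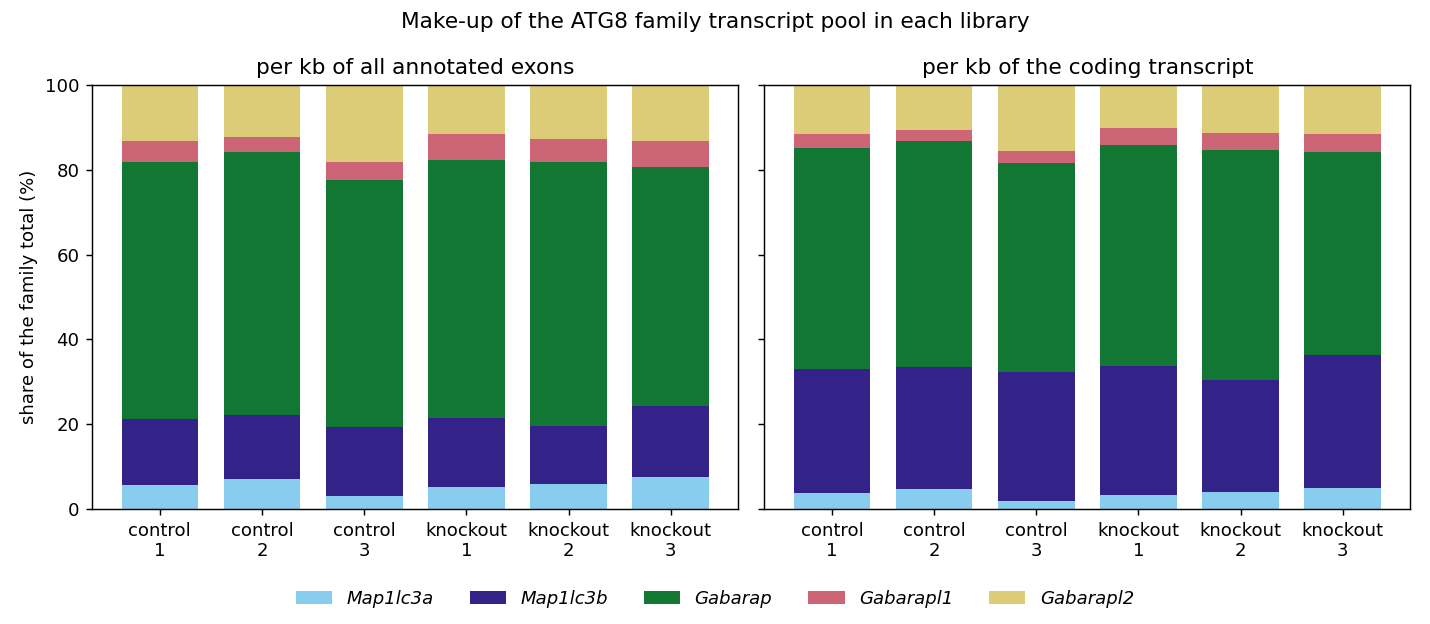
Share of each gene in the length-scaled ATG8 family total, in percent (y axis), for each of the 6 libraries (x axis), per kb of all annotated exons at left and per kb of the coding transcript at right. Gabarap takes the largest share in every library; Gabarapl1 takes 3.54% to 4.97% in the controls and 5.41% to 6.17% in the knockouts at left.

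Members of this family have processed copies, and reads can be shared with them. Map1lc3b had 5 rows in the table with at least 85% identity to its coding sequence over 150 bases or more, Gabarapl2 had 7 and Gabarap 1, whereas Map1lc3a and Gabarapl1 had 0. The copies of Map1lc3b summed to 5.997 to 17.4 CPM, or 1.52% to 4.95% of the level of Map1lc3b in the same library, with the pseudogene Gm6055 (99.7% identical) at up to 11.7 CPM. Those of Gabarapl2 came to 6.19% to 15.0% of its level, led by Gm3724 (99.4% identical) at up to 12.2 CPM. How reads that match several places were treated is not stated in the labels or notes, so the counts of Map1lc3b and Gabarapl2 are uncertain to a degree that these values do not bound. In Gabarapl1, 28.3% of exonic bases lie opposite exons of the antisense gene 1700101I11Rik. That gene had 0 reads in 5 libraries and 0.372 CPM in knockout 3.

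The promoter of Gabarapl1 is shown because this gene had the largest fitted change. Of the 5 members 4 matched the RefSeq promoter table on GRCm38.p6, and Map1lc3a is not shown. The start used is that of RefSeq. The GENCODE genes start earlier for Gabarapl1 (129533160), Map1lc3b (121590361) and Gabarap (69991143), so parts of these windows lie within them. For Gabarap, whose window begins at 69991120, this is most of the window. The 250 bases before the RefSeq start of Gabarapl1, at chr6:129532942-129533191 on the plus strand, read as follows, with a match to the forkhead core in capitals.
Gabarapl1: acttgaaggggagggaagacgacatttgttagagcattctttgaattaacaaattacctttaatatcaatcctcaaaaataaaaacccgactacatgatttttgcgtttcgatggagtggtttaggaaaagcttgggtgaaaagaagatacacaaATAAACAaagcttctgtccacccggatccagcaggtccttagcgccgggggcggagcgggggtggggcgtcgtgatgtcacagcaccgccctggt
Forkhead factors such as FOXO3 bind cores spelled GTAAACA or ATAAACA. Searched on both strands in windows of 300 bases, from 250 before to 50 after the start, either form occurred once in Gabarapl1, in 0 of the other 3 members' windows and in 7.97% of all 32851 promoters. The E-box CACGTG of the element bound by TFEB occurred in 0 of the 4 windows and in 7.15% of all promoters. The antioxidant response element core TGACNNNGC was found once, in Map1lc3b after the start, and in 12.4% of all promoters. The ATF4 composite core TGATGNAA was found in 0 of the 4 and in 3.97% of all. Such matches describe the letters in these windows only and depend on the start used.

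The transcription factors named with these motifs were measured beside the family. Of the 10 factors listed for ATG8 genes, among them TFEB, TFE3, MITF and the FOXO proteins, edgeR called 0, and 0 had an unadjusted p under 0.05. Their median log2 fold change was -0.03. Foxo3 had 131 ± 14.2 CPM in controls against 114 ± 1.59 CPM (fitted log2 difference -0.20, SE 0.16, edgeR unadjusted p = 0.224). Every knockout lay below every control, which held for 1 of the 10 factors and for 4.47% of all genes tested. Tfe3, a close relative of Tfeb, had 158 ± 39.8 and 143 ± 8.15 CPM (-0.15, SE 0.18). Foxo3 and Tfe3 were the factors with the smallest p.

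The enzymes that process ATG8 proteins were the next group. None of the 4 ATG4 protease genes reached an unadjusted p under 0.05, and their median was -0.07. Atg4b, the main LC3 protease, had 48.8 ± 10.99 CPM in controls against 55.2 ± 2.11 CPM (fitted log2 difference 0.16, SE 0.20). Atg4d had 22.1 ± 1.501 and 19.7 ± 3.02 CPM (-0.17, SE 0.24). Of the 7 genes for lipidation enzymes, edgeR called 1, Atg7 itself, and the other 6, which include Atg3, Atg5, Atg12 and Atg16l1, had an unadjusted p of 0.05 or more. The median of the 7 was -0.26.

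Genes for proteins that bind lipidated ATG8 followed. Among 18 cargo receptors, which link ubiquitin-tagged or membrane cargo to LC3 and GABARAP proteins, 16 had fitted changes above 0. The median of the 18 was 0.17, where 47.5% of all genes tested lay below 0. Summed over this list, control 3 was again the lowest library, with 1356 CPM. The sums of controls 1 and 2 were 1576 and 1564 CPM, while those of the knockouts ranged from 1632 to 1734 CPM. How far control 3 accounts for the direction of the 16 was not tested. EdgeR called 0 of the 18, and 1 had an unadjusted p under 0.05. This was Ccpg1, a receptor for autophagy of the endoplasmic reticulum, whose controls held 21.2, 24.5 and 25.1 CPM and whose knockouts held 33.4, 39.2 and 27.4 CPM (fitted log2 difference 0.50, SE 0.22, edgeR adjusted p = 0.999). Every knockout lay above every control, which held for 2 of the 18 genes and for 6.59% of all genes tested. Fundc1, a mitophagy receptor, had 85.2 ± 10.3 and 111 ± 33.1 CPM (0.38, SE 0.21), with knockout 3 below every control.

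The 7 initiation genes whose proteins bind ATG8 members had a median of 0.09, with 0 called and 0 at an unadjusted p under 0.05. Pik3c3, the lipid kinase VPS34, had 40.5 ± 2.72 and 52.9 ± 13.2 CPM (log2 fold change 0.39, SE 0.21), and Rb1cc1, which encodes FIP200 of the ULK complex, 18.2 ± 2.90 and 13.7 ± 5.34 CPM (-0.37, SE 0.33). The 11 adaptors for transport and fusion had a median of -0.12, again with 0 called and 0 at an unadjusted p under 0.05. Mapk8ip1 and Tecpr2 had the smallest p. Mapk8ip1, a scaffold of axonal transport, was at 1.13 ± 0.635 and 0.234 ± 0.232 CPM, and Tecpr2 at 6.05 ± 1.74 and 10.0 ± 3.58 CPM. In control 3, where the floor of 3 reads was 2.36 CPM, Mapk8ip1 lay below it at 1.57 CPM. Tecpr2 lay above it there, at 6.29 CPM.

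**Figure D4:**
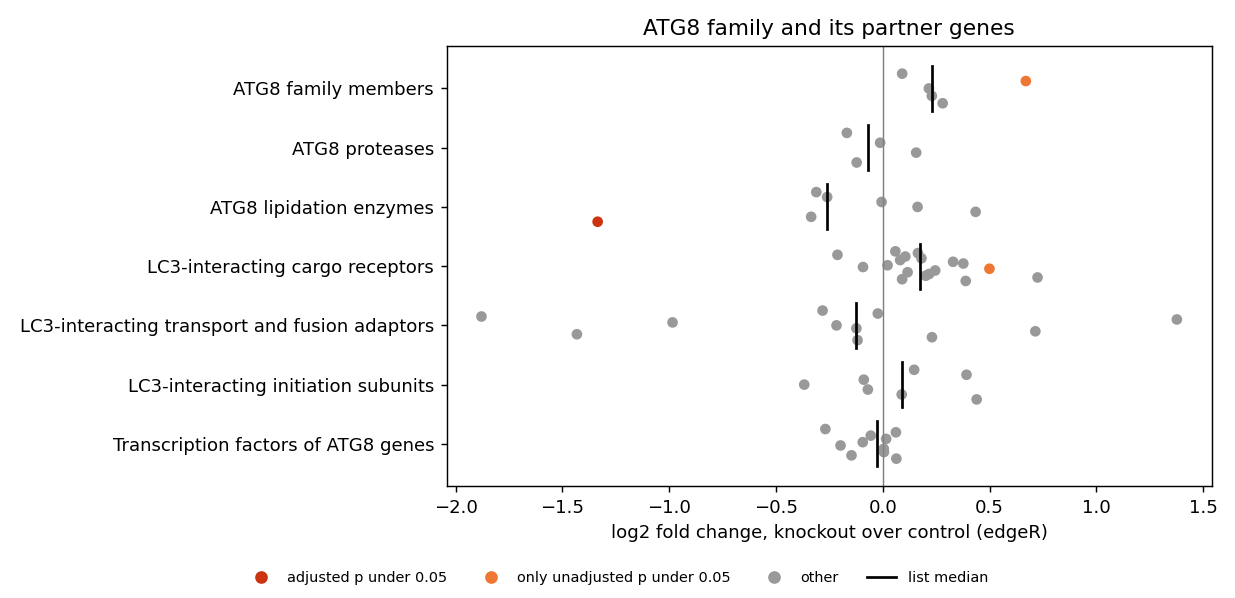
Fitted log2 fold change, knockout over control (x axis), of each tested gene in the ATG8 family and 6 lists of partner genes (y axis); black bars mark the list median and colours the p-value class. Atg7, at -1.33, is the only gene with an adjusted p under 0.05, and Gabarapl1 and Ccpg1 are the others with an unadjusted p under 0.05.

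Genes with the most similar pattern over the 6 libraries were sought for each member, as the smallest root mean square difference of mean-centred log2 CPM among protein-coding genes with a mean of at least 20 CPM. For Gabarapl1 they were Cpped1, Tbc1d23 and Polr1d, with differences of 0.05, 0.08 and 0.11 on the log2 scale, where Gabarapl1 itself varied by 0.47. Cpped1, a metallophosphatase gene, had 19.6 ± 6.17 CPM in controls against 32.3 ± 2.92 CPM, and Tbc1d23, which acts in transport from endosomes to the Golgi, 38.3 ± 10.2 and 60.6 ± 3.07 CPM. For Gabarap they were the respiratory chain gene Ndufb3, the ATP synthase gene Atp5j2 and Wdr74, each within 0.06. For Map1lc3b they were Chpf2, Pdcd6ip and Clpp, and for Gabarapl2 Ric8a, Mafg and Man2a2, all within 0.06. Map1lc3a was nearest to Pacs1, Slc17a9 and Ankrd13a, at 0.13 to 0.15. Within the family the closest pair was Map1lc3b and Gabarap, at 0.14, and the most distant was Map1lc3a and Gabarapl2, at 0.61. These libraries share the depth differences given above, and the measure is a description.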

How the data were processed

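The authors deposited unnormalized read counts per gene for 6 libraries. The kit was SMARTer Ultra Low, followed by shearing and PCR, per the labels' protocols, which mention no molecular identifiers. The Poisson intervals take each read as a separate count, so they leave out PCR copies and can be too narrow. The build GRCm39 and the tools STAR, featureCounts of Subread, Salmon and bcl2fastq are named, with no roles, per the submitters' processing notes. Whether counting used strand is not stated there. Of 55774 rows, 287 that repeated an identifier were left out; 0 rows named no gene and 0 columns belonged to other samples. GENCODE M21 (GRCm38), which holds 99.5% of the identifiers, gave exon lengths and coding sequences, because an annotation of GRCm39 was not used here.

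Group differences came from edgeR 4.0.16 (R 4.3.3): default expression filter, TMM scaling, robust quasi-likelihood F-test with group as the only term, Benjamini-Hochberg adjustment over all 15787 genes tested. A fold change is knockout over control, its SE is the coefficient over the square root of F, and CPM values are TMM-scaled. The labels number the mice as biological replicates. Named were the 5 members, Atg7 and Cx3cr1, the called members of each partner list or otherwise those 2 with the smallest p, and the 3 genes nearest to each member. The members and lists were chosen with earlier results of these data known. The test steps were checked on simulated counts. Alternatives were DESeq2 1.42.0, limma 3.58.1 (voom), other scalings and filters, a replicate block, thinning and leaving out libraries.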

Additional observations from a re-analysis of the deposited data

How the results depend on the processing

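None of the 5 genes was called in any of 16 alternatives, and Gabarapl1 kept a log2 fold change above 0 in all 16, from 0.48 to 0.89, with an unadjusted p of 0.00684 to 0.0495. Some other values changed sign: Map1lc3a had -0.021 and Gabarapl2 -0.0232 in limma voom, and without both shallow libraries Map1lc3a had -0.048, Gabarap -0.12 and Gabarapl2 -0.0651. With a library left out in turn the ranges were -0.0307 to 0.72 for Map1lc3a, 0.03 to 0.38 for Map1lc3b, -0.0205 to 0.42 for Gabarap, 0.49 to 0.89 for Gabarapl1 and -0.0063 to 0.19 for Gabarapl2, and that of the family sum was 0.04 to 0.39. The cause of these shifts was not tested. Genes called over the whole table, 5 higher and 2 lower, came to 60 and 42 with no filter, 49 and 34 in DESeq2, 9 and 6 in limma voom, 1 and 1 without the robust option, 9 and 30 without both shallow libraries, 3 and 2 after thinning to 1254380 reads, and 1 to 15 higher and 1 to 35 lower with a library left out. The replicate block gave 16 higher and 9 lower and a log2 fold change of 0.72 for Gabarapl1 (edgeR adjusted p = 0.827). Same-numbered libraries had correlations of 0.29, -0.19 and -0.05 between their deviations from the group mean. Not every library correlated best with its own number. Deviations within a group of 3 sum to 0, so these correlations depend on each other. They cannot show whether same-numbered mice were paired, and the labels give a number only. The share of Map1lc3b, -0.11 percentage points knockout minus control, was 1.11 without both shallow libraries. The Atg7 call was lost when any library but control 3 was left out, without the robust option and after thinning (edgeR adjusted p = 0.051 to 0.135). Depth limits Map1lc3a and Gabarapl1 most, with 8 and 19 reads in control 3.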

Other observations

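Tecpr1, a gene for a tether between autophagosomes and lysosomes that stands in the adaptor list, differed widely within each group. Controls 1 to 3 held 37.9, 40.0 and 1628 CPM and knockouts 1 to 3 held 34.9, 542 and 54.2 CPM, so the 2 libraries with the fewest reads were the highest. It was picked out after its values were seen, and the cause of these differences was not tested.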
